A study of Mus musculus with 20 samples.

Results

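Mitochondrial DNA is copied, transcribed and translated by proteins that are encoded in the nucleus and imported into the organelle. A list of 47 such genes was examined in young and old mouse heart. The genes were listed by name for their role, by a rule that uses no measured value, although earlier results of these data were known when the list was made. The list holds 4 genes of transcription, 4 of replication, 12 of RNA processing, 8 translation factors, 3 genes of tRNA modification and 16 aminoacyl-tRNA synthetases. All 47 had a probe set on the array, out of 18194 genes that were named there. Old mice (n = 10) were aged 25 to 28 months, and young mice (n = 10) were aged 4 to 6 months. All were males of the inbred C57BL/6J strain, with no transgene or drug named in the labels. RNA from the cardiac ventricle of each mouse went onto an array of its own (Affymetrix MOE430 2.0), which gave 20 arrays in all. The groups follow the sample titles, since the series' own summary of its design uses the word young for both age ranges.

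The mitochondrial genome encodes a small set of respiratory chain subunits together with the ribosomal and transfer RNAs needed to make them. A polymerase of its own transcribes both strands into long RNAs, which are cut, modified, given poly(A) tails and protected from decay by RNA-binding proteins. Each transfer RNA is then charged with its amino acid by a synthetase, and the mitochondrial ribosome translates the messages with its own initiation, elongation and recycling factors. In heart muscle, which depends on oxidative phosphorylation, inherited defects of several of these factors cause cardiomyopathy in humans.

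The values are GCRMA signals, a background-corrected and normalized measure of 1 probe set, on a log2 scale. Genes with log2 signals above 4 in 10 or more of the 20 arrays were tested, which left 9275 genes. Differences are old minus young, estimated with limma, a linear model fitted across all genes, and a gene is called when its Benjamini-Hochberg adjusted p over the 9275 genes is under 0.05. The p-values measure the spread between these mice, and the number of arrays limits the precision. All 12 ventricular muscle markers were tested and none was called (their summed linear signal, in log2, ran over 18.38, 18.52 and 18.59 in old arrays, against 18.46, 18.56 and 18.65 in young arrays, as lowest, median and highest). The old arrays carried more transcript of other cell types. Of 8 atrial markers, 5 were tested and all 5 were higher in old, with a summed signal between 11.06 and 16.59 in old arrays, against 10.53 to 12.51 in young arrays. Myl7, the atrial myosin light chain, lay between 12.13 and 14.55 in 7 old arrays, between 2.36 and 8.27 in the other 3, and between 2.38 and 2.44 in young arrays. Macrophage markers were higher in 8 of 9, with a summed signal of 11.55 to 12.32 in old arrays, against 10.82 to 11.45 in young arrays, and fibroblast markers were higher in 3 of 7. Endothelial markers were higher in 2 of 7 tested and smooth muscle markers in 1 of 6. Of 5 platelet markers, 3 were tested and all 3 were higher. One of them, Clec1b, reached at most 3.98 in young arrays and passed the filter only through old arrays. Of 4 erythroid markers, 2 were tested and both were higher. Of 6 lymphocyte markers, 1 was tested and was not called, and no adipocyte marker was tested. In bulk tissue, fewer cells of a type and less RNA per cell cannot be told apart. The arrays also fell into 5 sets of 2 old and 2 young arrays each, found from the values and not from the labels.

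Of the 47 genes of mitochondrial DNA maintenance and expression, 42 were tested, and 14 of the 42 fell with age. None rose, and 28 were not called. By role, the falls took in 2 of 4 tested transcription genes, 2 of 12 RNA processing genes, 1 of 2 tRNA modification genes, 7 of 12 synthetases, 2 of 8 translation factors and 0 of 4 replication genes. Over all 9275 genes, 7.49% fell and 11.2% rose. At an unadjusted limma p under 0.05, the 42 genes gave 23 lower and 0 higher, against 14.1% of all genes lower. The 14 calls became 1 without the 7 old arrays high in Myl7 and 1 with an atrial index as a covariate. They became 0 when the other 3 old arrays were set against young arrays of the same sets. Over all genes, 0.679%, 0.927% and 0.679% were called lower in these comparisons, in the same order.

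The differences were modest in size. The median over the 42 genes was −0.29 on the log2 scale, a change of −18.2%, against 0.01 over all genes tested. Estimates ran from −0.63 for Tfb1m to 0.05 for Mtpap, and 40 of the 42 (95.2%) were below 0, against 48.7% of all genes. In the order of all 9275 estimates, 17 of the 42 lay in the lowest 10%. The 14 called genes had changes between −35.4% and −17.9%. In all 14 the old and young arrays overlapped: none had every old array below every young one, an arrangement seen in 0.42% of all genes. Between 1 and 9 old arrays lay below the whole young range, and in 12 of the 14 every old array was below the young median.

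**Figure D1:**
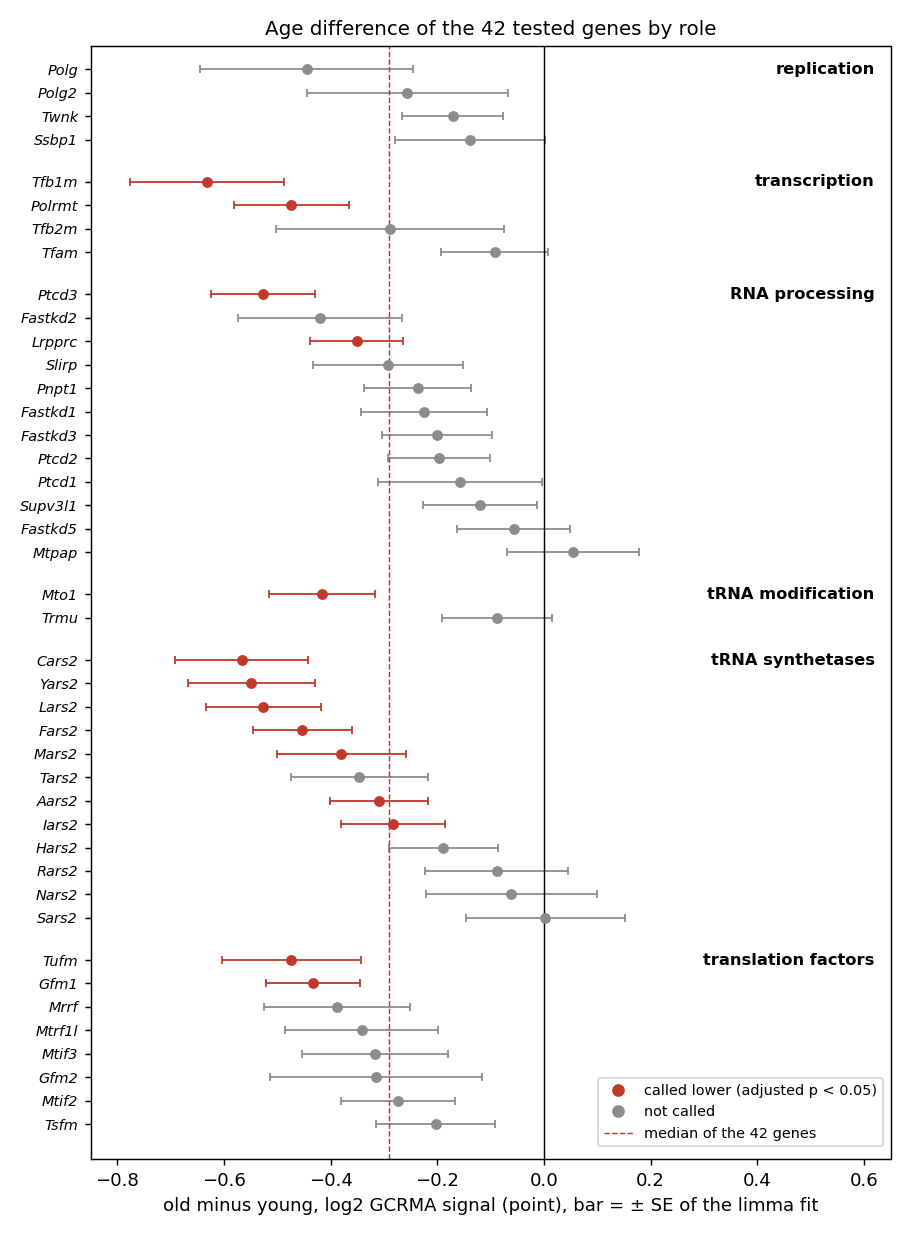
Old minus young difference of each of the 42 tested genes on a log2 scale, grouped by role, with bars for the SE of the limma fit, the 14 called genes in red and the others in grey. The dashed line is the median of −0.29, and 2 genes, Mtpap and Sars2, have estimates above 0.

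Filtering touched few of these genes. Of the 42, 39 exceeded a log2 value of 4 in all 20 arrays. Mtif3 did so in 19, Mars2 in 17 and Polg2 in 12. The 5 genes left out were Gtpbp3, which modifies transfer RNAs, and the synthetases Ears2, Pars2, Vars2 and Wars2 for glutamate, proline, valine and tryptophan. Their values lay between 3.06 and 4.8 over both groups, near the level that GCRMA gives to undetected transcripts, and their differences lay between −0.14 and 0.02.

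Promoters of nuclear genes for mitochondrial proteins are known for sites of nuclear respiratory factors and of YY1, and since several of these genes fell together, their promoter letters are given. RefSeq promoters of build GRCm38.p6, running from 250 bases before the start that the promoter table uses to 50 after it, were matched by symbol for 43 of the 47 genes. That start was the gene start of the gene table in 17087 of 22862 genes with 1 promoter (74.7%), and in 13 of 41 genes of the list. Searches covered both strands for CCGGAAG, the core bound by GABP (also called NRF-2) and other ETS factors, TGCGCA, a shortened core of the NRF-1 site that reads the same on both strands, and AAGATGG, the core of the YY1 site. These motifs share no overlapping match in the promoters shown. Counts are of genes, and a gene with several promoters, such as Aars2 and Twnk with 2 each, held a motif if any of them did. CCGGAAG was in 17 of the 43 genes (39.5%), against 9.93% of 27025 genes in the promoter table. That background holds every gene of the promoter table, whether or not it passed the signal filter in these hearts. TGCGCA was in 6 (14%, against 8.79%) and AAGATGG in 7 (16.3%, against 7.28%), and at least 1 of the 3 was in 25 (58.1%, against 22.8%). Among the 14 called genes, 10 (71.4%) held at least 1 motif, and among the 25 tested but uncalled genes with a promoter 14 (56.0%) did. CCGGAAG was in 35.7% of the called genes and 48.0% of the uncalled ones, TGCGCA in 21.4% and 12.0%, and AAGATGG in 28.6% and 8.0%, and these differences were not tested. A match is a description of letters and not a measured binding site.

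Windows of 100 bases, from 74 before the start to 26 after it, are shown for 3 called genes in which both tables give the same start and which between them hold all 3 motifs near it. Each is written 5′ to 3′ on the strand of the gene, with matches in capitals. They lie at chr16:16302891-16302990 (Yars2, plus strand), chr3:67430041-67430140 (Gfm1, plus) and chr1:55237103-55237202 (Mars2, plus).
Yars2: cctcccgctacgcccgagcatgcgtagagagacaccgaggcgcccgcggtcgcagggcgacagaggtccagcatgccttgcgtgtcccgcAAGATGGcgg
Gfm1: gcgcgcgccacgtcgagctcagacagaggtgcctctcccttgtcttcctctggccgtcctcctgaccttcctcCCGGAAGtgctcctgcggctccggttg
Mars2: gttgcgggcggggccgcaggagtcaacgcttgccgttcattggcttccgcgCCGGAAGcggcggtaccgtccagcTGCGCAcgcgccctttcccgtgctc

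In Yars2, AAGATGG began at base 17 of the transcript, counted from 1 at the start. The CCGGAAG of Gfm1 began 1 base before the start. Mars2 held CCGGAAG 23 bases before the start and TGCGCA at base 2. No match to any of the 3 was in the promoters of Tfb1m, Lrpprc, Fars2 and Lars2, which also fell.

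Among the 4 transcription genes, the polymerase Polrmt and the methyltransferase Tfb1m fell, while Tfam and Tfb2m were not called. Polrmt is the single-subunit RNA polymerase that transcribes mitochondrial DNA. Its log2 signal was 7.37, 7.93 and 8.17 in old arrays (lowest, median and highest, as for all genes below), against 8.05, 8.35 and 8.58 in young arrays. All 10 old arrays lay below the young median and 6 of them below every young array. The difference was −0.47 ± 0.11 (SE; adjusted p = 0.00376). Polrmt had a second passing probe set, which read lower in both groups and gave −0.13 (adjusted p = 0.663), so the call rests on 1 of 2 probe sets.

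Tfb1m is named as a transcription factor and is known as the enzyme that dimethylates the small ribosomal RNA of the mitochondrial ribosome. It read 6.19, 6.74 and 7.36 in old arrays, against 7.04, 7.29 and 7.94 in young arrays. In all, 8 of the old arrays were below the whole young range. Its difference of −0.63 ± 0.14 (adjusted p = 0.00399) had the largest size among the 42 genes.

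Tfam packages mitochondrial DNA into nucleoids and activates its transcription. Its signal was 8.31, 8.91 and 9.26 in old arrays, against 8.87, 8.96 and 9.04 in young arrays, so the old range spanned the young one on both sides. The difference was −0.09 ± 0.10 (adjusted p = 0.562), with an SD of 0.29 in old and 0.07 in young. Tfb2m, which opens the promoter for the polymerase, read 8.97, 9.85 and 10.71 in old arrays, against 9.31, 9.99 and 10.91 in young arrays, a difference of −0.29 ± 0.21 (adjusted p = 0.375).

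No replication gene was called by limma, and 1 of the 4, Polg, had an unadjusted p under 0.05. Polg, the catalytic subunit of the mitochondrial DNA polymerase, read 5.40, 6.86 and 7.35 in old arrays, against 6.58, 7.25 and 7.66 in young arrays. Its difference was −0.44 ± 0.20 (adjusted p = 0.126), and the lowest old array stood far below the others. With the array sets as a block, the adjusted p of Polg was 0.0237, which is too small because the sets were found on the same values. With the sets and an atrial index together it was 0.293.

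Twnk, the helicase of the replication fork, read 5.38, 6.10 and 6.38 in old arrays, against 6.06, 6.21 and 6.37 in young arrays, and differed by −0.17 ± 0.10 (adjusted p = 0.223). Ssbp1, which coats single-stranded mitochondrial DNA, read 10.56, 10.78 and 11.44 in old arrays, against 10.71, 10.95 and 11.61 in young arrays, with a difference of −0.14 ± 0.14 (adjusted p = 0.536). Polg2, the accessory subunit of the polymerase, differed by −0.26 ± 0.19 (adjusted p = 0.370) close to the detection level. All 4 estimates were below 0, and the SEs leave the size of each poorly fixed.

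Of the RNA processing genes, Ptcd3 and Lrpprc fell. Ptcd3, a pentatricopeptide repeat protein, is also a component of the small subunit of the mitochondrial ribosome. It read 9.85, 10.07 and 10.58 in old arrays, against 10.49, 10.63 and 10.84 in young arrays. Below every young array lay 8 old arrays, and the upper end of the old range reached into the young range. The difference was −0.53 ± 0.10 (adjusted p = 0.00074), the smallest adjusted p among the 42 genes.

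Lrpprc forms a complex with Slirp that stabilises mitochondrial messenger RNAs. Its signal was 9.03, 9.30 and 9.54 in old arrays, against 9.39, 9.63 and 9.82 in young arrays, a difference of −0.35 ± 0.09 (adjusted p = 0.00705), with 7 old arrays below the young range. The partner Slirp read 8.95, 9.25 and 9.83 in old arrays, against 9.21, 9.47 and 10.33 in young arrays. Its estimate was of similar size and less certain, at −0.29 ± 0.14 (adjusted p = 0.156). With the array sets as a block its adjusted p was 0.00405, too small as the sets came from these values. With sets and atrial index together it was 0.322.

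Another 9 RNA processing genes were not called, and with Slirp their adjusted p lay between 0.0606 and 0.807. Fastkd2, an RNA granule protein needed for ribosome assembly, read 8.69, 9.13 and 9.88 in old arrays, against 9.15, 9.60 and 10.14 in young arrays, and came closest (−0.42 ± 0.15, adjusted p = 0.0606). The related Fastkd1 (−0.22), Fastkd3 (−0.20) and Fastkd5 (−0.06), the RNA-processing proteins Ptcd1 (−0.16) and Ptcd2 (−0.20), and Pnpt1 (−0.24) and Supv3l1 (−0.12), the nuclease and helicase of the RNA degradation complex, all had log2 estimates below 0. Mtpap, the mitochondrial poly(A) polymerase, had the only estimate above 0 in this role, 0.05 ± 0.12 (adjusted p = 0.807).

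Mto1, which works with Gtpbp3 to modify the wobble uridine of several mitochondrial transfer RNAs, fell. It read 6.64, 7.29 and 7.56 in old arrays, against 7.54, 7.61 and 7.81 in young arrays. Of the 10 old arrays, 9 were below the whole young range. The difference was −0.42 ± 0.10 (adjusted p = 0.00534). Trmu, the enzyme that adds sulfur to the same base, was not called (−0.09 ± 0.10, adjusted p = 0.598).

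The synthetases held 7 of the 14 calls, for cysteine, tyrosine, leucine, phenylalanine, methionine, alanine and isoleucine. Cars2, the cysteine enzyme, read 5.37, 6.23 and 6.69 in old arrays, against 6.48, 6.81 and 7.02 in young arrays. Below every young array lay 8 old arrays, and the difference was −0.57 ± 0.12 (adjusted p = 0.00305). It was the 1 gene of the 42 still called without the 7 old arrays that were high in Myl7 (−0.57, adjusted p = 0.0239).

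Yars2, the tyrosine enzyme, read 6.73, 7.37 and 7.70 in old arrays, against 7.61, 7.77 and 8.29 in young arrays, a difference of −0.55 ± 0.12 (adjusted p = 0.00276). Lars2, the leucine enzyme, read 7.70, 8.18 and 8.37 in old arrays, against 8.33, 8.63 and 8.96 in young arrays, and differed by −0.53 ± 0.11 (adjusted p = 0.00164). Below the young range lay 8 old arrays for Yars2 and 6 for Lars2. Fars2, the phenylalanine enzyme, read 8.04, 8.44 and 8.82 in old arrays, against 8.64, 8.93 and 9.11 in young arrays, with a difference of −0.45 ± 0.09 (adjusted p = 0.00166). Lars2 and Fars2 each had a second passing probe set that was lower in old without a call, at −0.36 (adjusted p = 0.438) and −0.42 (adjusted p = 0.119).

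The remaining 3 synthetase calls were smaller or less secure. Aars2, the alanine enzyme, read 4.76, 4.98 and 5.13 in old arrays, against 4.92, 5.24 and 5.74 in young arrays, a difference of −0.31 ± 0.09 (adjusted p = 0.0214). Mars2, the methionine enzyme, read 3.29, 4.15 and 4.50 in old arrays, against 4.25, 4.42 and 4.88 in young arrays, a difference of −0.38 ± 0.12 (adjusted p = 0.0316) close to the detection level. Iars2, the isoleucine enzyme, overlapped most: it read 8.49, 8.82 and 9.0 in old arrays, against 8.74, 9.21 and 9.42 in young arrays, and only 1 old array was below every young one. Its difference was −0.28 ± 0.10 (adjusted p = 0.0451). When each array was left out in turn, the other 12 genes of the 14 were called in all 20 fits. Mars2 was called in 16, and not without old replicate 6 or without young replicate 13, 16 or 19. Centring arrays on their median ended the calls of Mars2 (adjusted p = 0.0561) and Iars2 (adjusted p = 0.0891). Iars2 was called in 7 of the left-out fits, those without old replicate 1, 5 or 7 or without young replicate 11, 14, 17 or 20.

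The other 5 tested synthetases were not called. Tars2, the threonine enzyme, read 6.45, 7.03 and 7.24 in old arrays, against 6.74, 7.19 and 7.71 in young arrays, and differed by −0.35 ± 0.13 (adjusted p = 0.0637). A second Tars2 probe set was called at −0.37. The histidine, arginine and asparagine enzymes Hars2 (−0.19), Rars2 (−0.09) and Nars2 (−0.06) had small negative log2 estimates, and the serine enzyme Sars2 (0.00 ± 0.15, adjusted p = 0.992) showed no difference in either direction beyond that error.

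Of the translation factors, the elongation factors Gfm1 and Tufm fell. Gfm1, which moves the ribosome along the message, read 10.20, 10.43 and 10.88 in old arrays, against 10.74, 10.90 and 11.10 in young arrays. Below the young range lay 9 old arrays, and the difference was −0.43 ± 0.09 (adjusted p = 0.00164). Tufm, which brings charged transfer RNAs to the ribosome, read 7.71, 8.56 and 8.76 in old arrays, against 8.55, 8.99 and 9.34 in young arrays. It differed by −0.47 ± 0.13 (adjusted p = 0.0134), with 5 old arrays below the young range.

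The other 6 factors all had estimates below 0, between −0.39 and −0.20, with adjusted p from 0.0504 to 0.289. Mrrf, which recycles ribosomes after termination, read 5.78, 6.80 and 6.90 in old arrays, against 6.85, 6.92 and 7.61 in young arrays, and narrowly missed the threshold (−0.39 ± 0.14, adjusted p = 0.0504). The initiation factor Mtif2 read 8.32, 8.62 and 9.09 in old arrays, against 8.64, 8.96 and 9.14 in young arrays (−0.27 ± 0.11, adjusted p = 0.0761). With the array sets as a block its adjusted p was 0.0165, too small as the sets came from these values. With sets and atrial index together it was 0.391. The second initiation factor Mtif3 (−0.32), the release factor Mtrf1l (−0.34), the recycling factor Gfm2 (−0.31) and the nucleotide exchange factor Tsfm (−0.20), which serves Tufm, made up the rest.

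**Figure D2:**
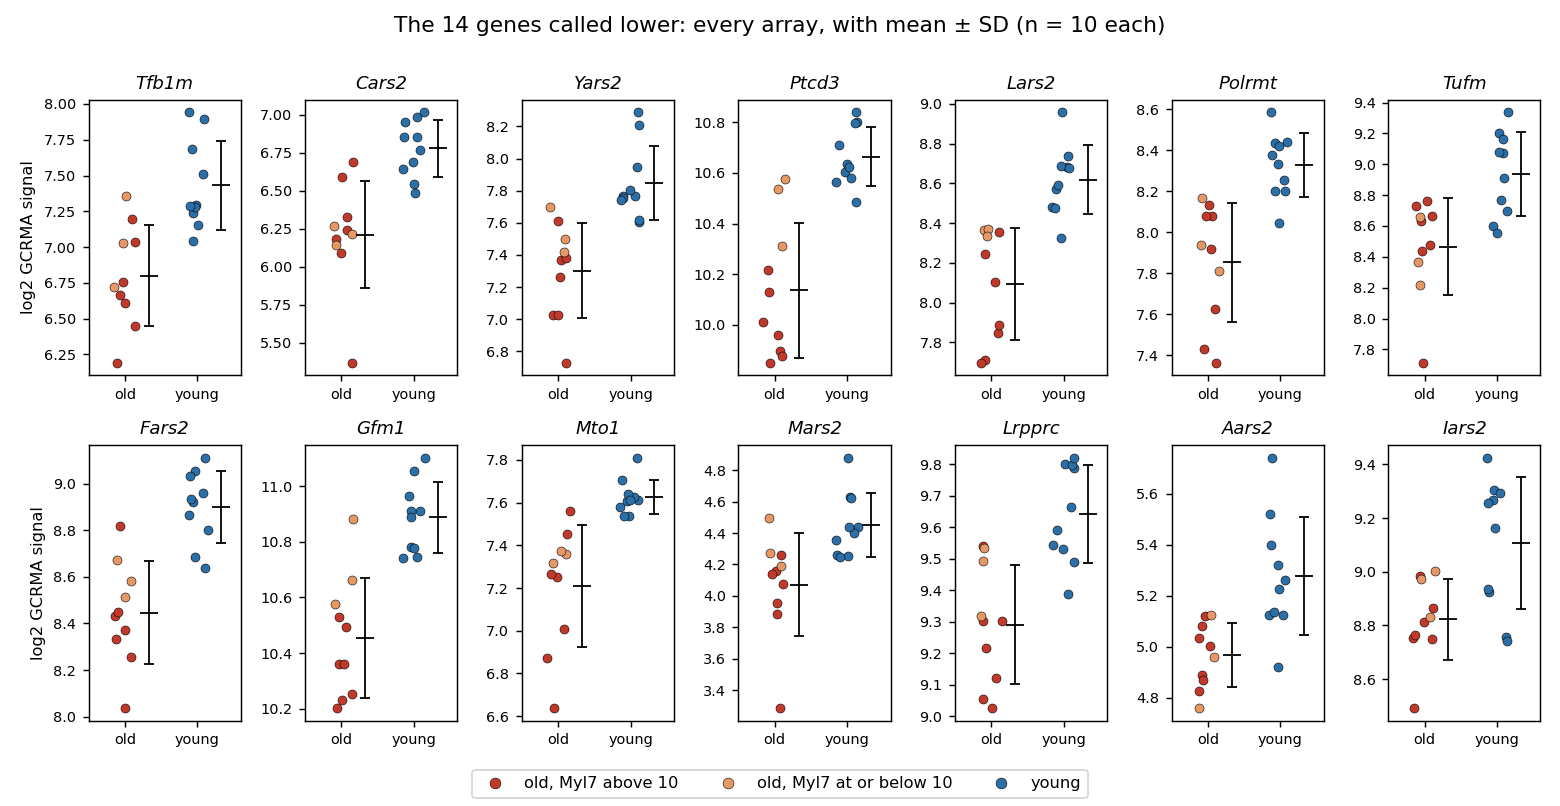
Log2 GCRMA signal of the 14 called genes in each array, old left of young, with the mean ± SD of 10 arrays per group. Old arrays with Myl7 above 10 and those at or below it have separate colours. Every panel shows overlapping groups with the old mean below the young one.

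Probe sets of 1 gene mostly ran together. Of the 14 genes with several passing probe sets, 13 had the same sign in each, and Tfam was the exception, with a second estimate of 0.01. Calls differed between probe sets in Fars2, Lars2, Polrmt and Tars2. Over all 57 passing probe sets of the 42 genes, 19 were called lower and 0 higher. These counts come from a separate limma fit over all passing probe sets. The share called over all passing probe sets is not given here, so the counts have no background beside them. Iars2 was not called in that fit (adjusted p = 0.0534).

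A wider list of 77 other genes of the same pathway, which adds nucleotide supply, ribosome assembly and further RNA-modifying enzymes, showed a smaller shift. It had 68 tested genes, of which 12 fell and 1 rose, with a median of −0.19 and 56 estimates (82.4%) below 0. Over all 9275 genes, 7.49% fell, 11.2% rose and 48.7% had estimates below 0. Slc25a33, a carrier of pyrimidine nucleotides into mitochondria, read 6.18, 6.65 and 7.17 in old arrays, against 7.10, 7.64 and 7.97 in young arrays, and fell by 0.93 on the log2 scale (SE 0.13; adjusted p = 4.9e-05). Also lower were Osgepl1, a tRNA-modifying enzyme (−0.53), Gatb, a subunit of the amidotransferase that makes glutaminyl-tRNA (−0.55), the pseudouridine synthase Rpusd4 (−0.61), the ribosome assembly GTPase Mtg1 (−0.38), Prorp, the nuclease that trims transfer RNA ends (−0.50), and Mpv17, an inner membrane protein needed to keep mitochondrial DNA (−0.34).

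Tk2, the mitochondrial thymidine kinase, was the 1 gene that rose. It read 4.29, 4.89 and 5.43 in old arrays, against 3.79, 4.28 and 4.59 in young arrays, a difference of 0.55 ± 0.14 (adjusted p = 0.00649). Of the genes that mitochondrial DNA itself encodes, the array named only mt-Nd5, a subunit of respiratory complex I. It read 15.13, 15.26 and 15.36 in old arrays, against 15.28, 15.33 and 15.40 in young arrays, a difference of −0.07 (adjusted p = 0.448), near the top of the scale where probe sets approach saturation.

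The shift of the 42 genes differed from mouse to mouse among the old animals. The mean log2 signal over the 42 genes was 7.32 ± 0.16 in old arrays and 7.61 ± 0.05 in young arrays (SD, n = 10 each). Set against the young mean, old replicates 8 and 9 were lowest, at −0.55 and −0.56, and old replicate 7 was nearest to it, at −0.06. Between 27 and 40 of the 42 genes lay below their young median in an old array, against 16 to 26 in a young array. The young counts average 21 by construction, since the median comes from those arrays. The SD was larger in old than in young for 31 of the 42 genes (73.8%), against 61.5% of all genes. Old replicates 8 and 9 also had the lowest sums of the ventricular markers, 18.38 and 18.39, and whether this plays a part in the result was not tested.

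**Figure D3:**
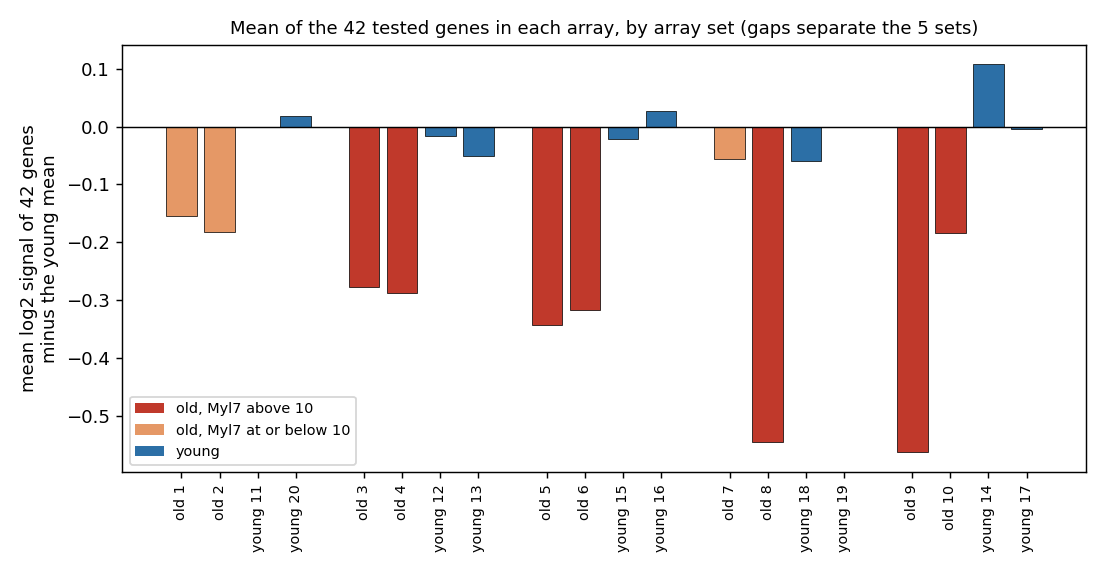
Mean log2 signal of the 42 tested genes in each array minus the young mean, with the 5 array sets side by side and old arrays left of young arrays within each set. All 10 old bars point down, from −0.06 to −0.56, and the orange bars mark the 3 old arrays with Myl7 at or below 10.

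The mean over the 42 genes was also lower in the old arrays above the Myl7 level of 10 than in those below it. The 7 old arrays with Myl7 above 10 had a mean over the 42 genes of 7.25 ± 0.14 (SD, n = 7), and the 3 with less had 7.48 ± 0.07 (SD, n = 3). The macrophage sum averaged 12.00 and 11.81 in these arrays, and the part of either cell type in the result was not tested. Without those 7 arrays, limma called 1 of the 42 genes lower (Cars2), against 0.679% of all genes, and 9 lower and 2 higher at an unadjusted p under 0.05 (6.42% of all genes were lower), with a median of −0.18 and 29 estimates below 0. All 14 called genes kept estimates below 0 there, between −0.57 and −0.13, in a comparison that shares arrays with the one that called them. With an atrial index built from Myl7 and Sln as a covariate, Cars2 alone was called (0.927% of all genes) and 36 of the 42 estimates were below 0, with a median of −0.18. Among the 7, the index and the mean set against the young mean were 0.13 and −0.28 in old replicate 3, 0.40 and −0.34 in replicate 5, 0.58 and −0.55 in replicate 8, 0.71 and −0.29 in replicate 4, 0.80 and −0.56 in replicate 9, 0.86 and −0.32 in replicate 6, and 1.0 and −0.18 in replicate 10. Among the 3 with less Myl7, the index and the mean were 0.0003 and −0.15 in old replicate 1, 0.003 and −0.06 in replicate 7, and 0.01 and −0.18 in replicate 2. The relation between index and mean was not tested.

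The medians by role under these comparisons are descriptions, and the difference between roles was not tested. Over the 8 translation factors the median was −0.27 without the 7 arrays, −0.26 with the index and −0.20 in the sets of the 3 other old arrays, against −0.33 with all arrays. The 12 synthetases had −0.22, −0.25 and −0.14 in the same order, against −0.33. For the 4 transcription genes the values were −0.18, −0.22 and −0.14, against −0.38. The 12 RNA processing genes had 0.01, −0.08 and −0.09, against −0.21, with 5, 9 and 7 of the 12 below 0. In the 4 replication genes they were 0.00, −0.13 and −0.07, against −0.21, with 2, 4 and 3 below 0. In the wider list no gene was called without the 7 arrays, where 0.679% of all genes were called lower.

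**Figure D4:**
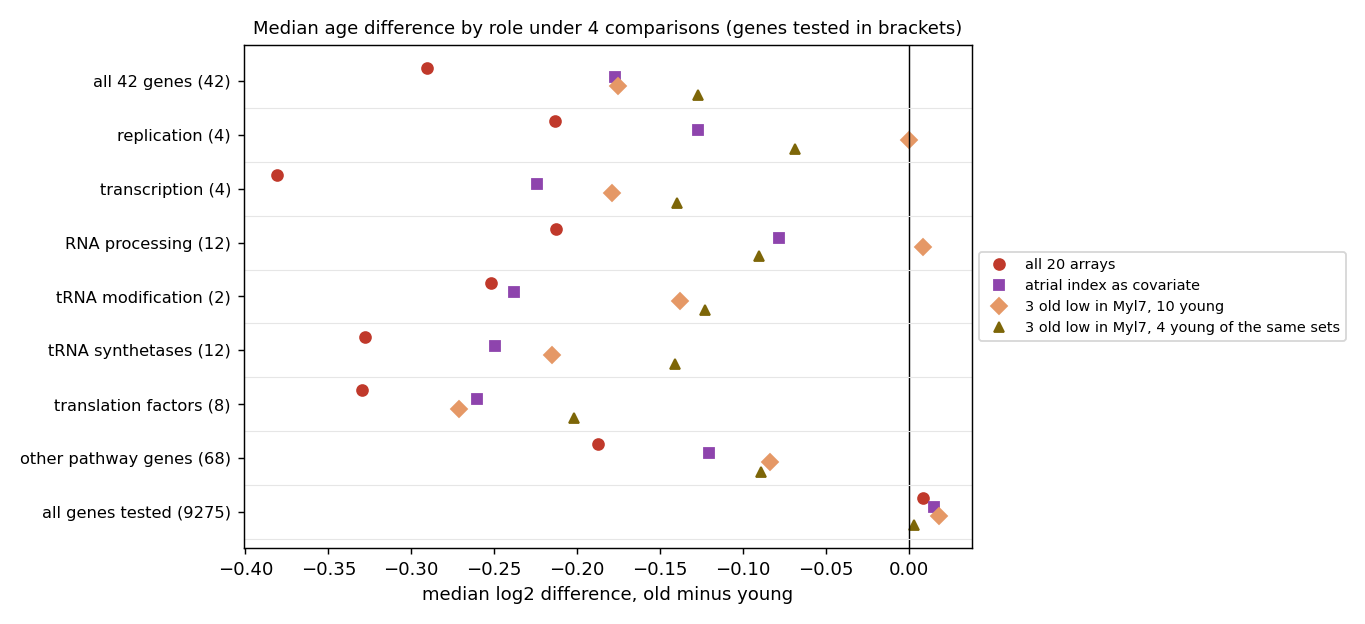
Median old minus young log2 difference of the tested genes in each role, the wider list and all genes, under 4 comparisons that differ in the arrays or covariates used. Translation factors have medians between −0.33 and −0.20 and RNA processing genes between −0.21 and 0.01 over the 4 comparisons, and the medians over all genes lie near 0. The 2 comparisons without the 7 old arrays high in Myl7 rest on 3 old arrays.

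The array sets bore on the calls too. Within the 5 sets the median difference of the 42 genes was −0.17, −0.27, −0.34, −0.26 and −0.41, with 34 to 40 genes lower in each, while the median over all genes lay between −0.03 and 0.04. Of the 42 tested genes, 28 were lower in all 5 sets at once, among them all 14 called genes. The share of all genes that were lower in all 5 sets is not given here. The sets divide the same arrays that gave the calls, so this is no separate evidence for the 14. With the sets as a block, 25 of the 42 genes were called lower and 0 higher, against 16.7% of all genes called lower. These sets were found on the same values, which makes such p-values too small. With the sets as a block and the atrial index together, 3 genes were called, Cars2, Ptcd3 and Tfb1m (1.89% of all genes).

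A narrower comparison set the 3 old arrays with less Myl7 against the 4 young arrays of their sets. No gene of the 42 was called by limma there (0.679% of all genes were), with 10 lower and 0 higher at an unadjusted p under 0.05 (9.11% of all genes were lower). The median was −0.13, 31 of 42 estimates were below 0, and the 14 called genes had estimates from −0.47 to −0.04. Scaling moved the balance of all calls. As deposited, 59.9% of all called genes were rises, against 43.3% after quantile normalization, 68.6% after centring arrays on their median and 41.9% after centring on the median of the genes tested. Quantile normalization called 20 of the 42 genes lower (11.4% of all genes) and median centring 12 (5.66%), without Mars2 and Iars2. Centring on the median of the genes tested called 21 of the 42 lower, beside 1133 of all 9275 genes. None of the 3 called any of the 42 higher.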

How the data were processed

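Per the labels' protocols, RNA came from frozen cardiac ventricle of male mice and was hybridised to 1 array per mouse. The authors deposited 1 table of log2 signals for 45101 probe sets and 20 arrays, made with GCRMA per the submitters' processing notes (version not given in the sources used here). That the scale is log2 was judged from the range of the values, 0.98 to 16.0. GCRMA sets undetected transcripts near a common low value, which compresses differences of dim genes. No pair of arrays was identical, and pairs correlated with Spearman's rho of 0.950 to 0.995.

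Gene names came from the platform annotation, in which 34945 probe sets had 1 gene; 932 with several and 9160 with none here were not used. Symbols were brought up to date through the identifiers of a GRCm38.p6 gene table. Probe sets passed with log2 signals above 4 in 10 or more arrays, and the passing probe set of highest mean stood for its gene. Groups were fitted with limma 3.58.1 (lmFit, eBayes) under R 4.3.3 without covariates, and p-values were adjusted by Benjamini and Hochberg's method over 9275 genes. In simulated data for this comparison over 9275 genes, the fit recovered 56% of changes of 0.5 and 97% of changes of 1 (log2). Of its calls there, 6.13% were false. The measured arrays fell into 5 sets, and 61.5% of all genes had a larger SD in old than in young. Whether the 3 shares hold for the measured arrays was not tested.

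The genes, the wider list and the cell markers were chosen with earlier results of these data known. Described one by one are all called genes, a fixed set of 6 others, up to 8 called genes of the wider list, and, chosen after their values were seen, Tfb2m, Fastkd2, Mrrf, Tars2 and the remaining genes of each role. For the atrial index, the linear signals of Myl7 and Sln were each divided by their highest array and averaged. Array sets came from average linkage of residual correlations (cluster 2.1.8.1; mean silhouette 0.351). Alternatives were quantile normalization, centring, other filters, the mean of probe sets, the sets, the index, leaving out arrays, and a trended robust prior. Centring on the genes tested, and the comparison of 3 old with 4 young arrays, were added after seeing the data.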

Additional observations from a re-analysis of the deposited data

Results flagged for a closer look

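In 9 of 84 combinations of gene and group, 1 array stood apart from the other 9 by Dixon's criterion, which chance meets in about 1 in 20 groups. All 9 were in the old group. Old replicate 8 had the low value in Twnk (5.38), Ptcd2 (7.85), Tufm (7.71), Mrrf (5.78) and Cars2 (5.37). Old replicate 9 had it in Polg (5.40), Iars2 (8.49) and Mars2 (3.29). Old replicate 7 had a high value in Hars2 (6.01). Old replicates 8 and 9 were also the 2 arrays with the lowest mean over the 42 genes. Leaving out old replicate 8 or 9 left 13 genes called lower in each case, with Iars2 no longer called in either. Of all genes, 574 were called lower without replicate 8 and 591 without replicate 9.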

How the results depend on the processing

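No paired analysis was possible because the old and young arrays share no replicate number. No gene of the 42 was called higher under any alternative run, and none of the 14 called genes changed sign under any. The count of 14 lower became 25 with the array sets as a block, 3 with sets and atrial index, 1 with the index, 1 without the 7 old arrays high in Myl7 and 0 against young arrays of the same sets, where the median was −0.13. Leaving out single arrays gave 12 to 17 genes and medians from −0.32 to −0.26. In the same fits, 538 to 777 of all genes were called lower. Over all genes, calls lower and higher were 695 and 1037 as reported, 1546 and 1798 with sets, 175 and 404 with sets and index, 86 and 261 with the index, 63 and 209 without the 7 arrays, and 63 and 155 in matched sets. Falls numbered 1059 after quantile normalization, 1133 after centring on the genes tested and 3047 with no filter. In the wider list, falls numbered 19 after quantile normalization, 21 after centring on the genes tested, 26 with sets, 2 with the index, with or without sets, and 0 without the 7 arrays and in matched sets. Rises there numbered 3 with sets, 0 with a filter at 6, with the index, with both, without the 7 arrays and in matched sets, and 1 to 2 with single arrays left out. The cause of these changes was not tested.

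Uncalled genes that changed sign were Sars2 after quantile normalization (−0.110) and centring on the genes tested (−0.0612), and Mtpap under that centring (−0.00968). With the index they were Tfam (0.0598), Supv3l1 (0.0404), Fastkd5 (0.0709), Nars2 (0.217), Rars2 (0.147) and Sars2 (−0.0498). With index and sets they were Tfam (0.0321), Supv3l1 (0.0795), Nars2 (0.0787) and Rars2 (0.0507). Without the 7 arrays they were Tfam (0.0178), Polg2 (0.182), Ssbp1 (0.0798), Pnpt1 (0.0613), Supv3l1 (0.000626), Fastkd1 (0.0524), Fastkd2 (0.102), Fastkd5 (0.219), Ptcd2 (0.0167), Hars2 (0.0557), Nars2 (0.346), Rars2 (0.350) and Sars2 (−0.152). In matched sets they were Polg2 (0.140), Supv3l1 (0.0764), Fastkd1 (0.0751), Fastkd5 (0.000145), Ptcd2 (0.0414), Tsfm (0.00742), Trmu (0.00895), Nars2 (0.0201) and Rars2 (0.0846). With single arrays left out, Sars2 ran from −0.0595 to 0.0803 and Nars2 from −0.145 to 0.0253. Signal near the background level limits Polg2, Mars2, Mtif3 and the 5 untested genes.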
